A study of Mus musculus with 6 samples.

Results

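The genes described here encode the major histocompatibility complex (MHC) of the mouse, named H2, and the proteins that load its molecules with peptide. They were chosen by name among the protein-coding genes of the deposited count table: every name that begins with H2-, together with B2m, Tap1, Tap2, Tapbp, Cd74, Ciita, Psmb8 and Psmb10, which gave 38 of the 26743 genes (37 names, as Ciita stands under 2 gene identifiers). RNA-seq was performed on total RNA, depleted of ribosomal RNA, from the testes of 3 wild type (WT) and 3 Trf2-/- mice, all males at post-natal day 21, when the first round spermatids appear. Trf2, whose gene symbol is Tbpl1, is a TBP-like factor of the testis, and no further allele, Cre or treatment is named for either genotype. The strain of these mice and the exons deleted are not given in the labels. Whole testis was used, so that each value sums over germ cells, Sertoli cells and the cells between the tubules, and with such samples more cells of a type and more RNA per cell cannot be told apart.

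The labels were first checked with the inactivated gene. Tbpl1 gave 308, 283 and 294 CPM (counts scaled to library size, with TMM factors) in WT mice 1 to 3 and 62.9, 64.3 and 55.8 CPM in Trf2-/- mice 1 to 3, a log2 fold change of -2.27 (SE 0.06, edgeR adjusted p 1.18e-06). The summed level of 5 pachytene spermatocyte markers, which is no check of the labels, lay between 2350 and 2520 CPM per kb of gene length in WT. In Trf2-/- testis it lay between 1430, in mouse 3, and 1870. Most of that sum was Ldhc (mean 1440 CPM per kb in WT and 890 in Trf2-/- testis). Counts on genes ran from 15187062 to 29859347 per mouse, so that a gene without a read could still have up to 3 counts, or 0.105 to 0.19 CPM depending on the mouse (counting error only). Of 16924 genes tested with edgeR, 11.2% were higher and 20.2% lower in Trf2-/- testis at an adjusted p under 0.05, and their median log2 fold change was 0.04. Trf2-/- mouse 1 stood apart in the general leukocyte markers and the macrophage markers. Its summed level of 7 leukocyte markers was 54.9 CPM per kb against at most 25.8 in any other mouse, and that of 11 macrophage markers 227 against at most 124.

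Class I molecules consist of a heavy chain and the light chain B2m, and display peptides cut by the proteasome and pumped into the endoplasmic reticulum by the Tap transporter. Class II molecules are found mainly on macrophages, dendritic cells and B cells, where the invariant chain Cd74 holds the peptide groove until H2-DM exchanges its remnant for an antigen peptide. In the testis, a tissue known for immune privilege, germ cells carry little class I, and class II is carried by some of the macrophages but not by all. Interferon, through Irf and Stat factors, and the co-activators Nlrc5 for class I and Ciita for class II, are known to act on the promoters of these genes.

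The promoters of 8 of the genes are shown, 7 with elements known for class I or class II and that of H2-Q2, the gene that fell, for comparison. Each is the 200 bases before a RefSeq start of the gene in GRCm38.p6, written 5′ to 3′ on the gene's strand. H2-K1 lies at chr17:34000334-34000533 (minus strand), H2-D1 at chr17:35262894-35263093 (plus strand), H2-Q4 at chr17:35379417-35379616 (plus strand) and H2-Q2 at chr17:35342107-35342306 (plus strand). For B2m the bases are chr2:122147487-122147686 (plus strand), for Tap1 chr17:34187356-34187555 (plus strand), for H2-Aa chr17:34287824-34288023 (minus strand) and for H2-Eb1 chr17:34305667-34305866 (plus strand). Capitals mark matches on either strand to the core of the interferon response element (GAANNGAAA) and the kappa B site of class I promoters (GGGGATTCC). They also mark the Y box (CTGATTGG) and the core of a CRE (TGACG), which is known from the X2 box. The marked TGACG follows gacactga in H2-D1 but cattggg in H2-Q4, and whether each mark lies in an X2 box was not examined. Letters with another spacing, such as gaaactgaaa in B2m, were not searched for. In H2-Aa the CRE core is matched on both strands and the matches overlap.
H2-K1: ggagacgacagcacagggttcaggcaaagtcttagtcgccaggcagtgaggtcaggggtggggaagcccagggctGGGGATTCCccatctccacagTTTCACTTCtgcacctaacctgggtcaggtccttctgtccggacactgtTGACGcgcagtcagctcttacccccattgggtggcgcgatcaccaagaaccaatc
H2-D1: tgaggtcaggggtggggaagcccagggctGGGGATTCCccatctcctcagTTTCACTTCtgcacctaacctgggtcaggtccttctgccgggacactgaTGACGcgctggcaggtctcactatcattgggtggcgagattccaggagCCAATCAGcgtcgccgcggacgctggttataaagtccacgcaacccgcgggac
H2-Q4: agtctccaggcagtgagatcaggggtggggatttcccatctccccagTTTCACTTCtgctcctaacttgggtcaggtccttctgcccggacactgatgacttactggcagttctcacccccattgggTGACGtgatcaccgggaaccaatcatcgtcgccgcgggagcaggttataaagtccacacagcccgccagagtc
H2-Q2: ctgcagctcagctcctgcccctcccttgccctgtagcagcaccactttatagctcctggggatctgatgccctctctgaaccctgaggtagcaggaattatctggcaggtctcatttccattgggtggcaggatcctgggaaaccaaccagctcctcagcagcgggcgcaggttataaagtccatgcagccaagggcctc
B2m: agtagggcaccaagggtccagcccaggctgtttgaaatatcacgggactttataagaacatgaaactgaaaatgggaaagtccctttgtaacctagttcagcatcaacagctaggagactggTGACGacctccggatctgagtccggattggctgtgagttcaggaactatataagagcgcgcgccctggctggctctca
Tap1: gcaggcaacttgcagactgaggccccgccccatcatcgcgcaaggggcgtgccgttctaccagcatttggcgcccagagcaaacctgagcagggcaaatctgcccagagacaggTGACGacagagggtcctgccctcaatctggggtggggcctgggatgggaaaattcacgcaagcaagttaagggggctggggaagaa
H2-Aa: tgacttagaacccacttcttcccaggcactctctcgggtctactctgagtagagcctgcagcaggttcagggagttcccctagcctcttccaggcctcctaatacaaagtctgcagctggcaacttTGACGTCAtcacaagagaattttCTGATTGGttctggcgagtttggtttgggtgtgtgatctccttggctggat
H2-Eb1: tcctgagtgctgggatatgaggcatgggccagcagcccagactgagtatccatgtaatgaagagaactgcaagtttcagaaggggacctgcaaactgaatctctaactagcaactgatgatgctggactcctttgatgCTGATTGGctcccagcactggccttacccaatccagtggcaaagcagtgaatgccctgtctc

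In the 250 bases before the start, GAANNGAAA was matched in 6.31%, GGGGATTCC in 0.213%, CTGATTGG in 3.83% and TGACG in 17.8% of the 32851 promoters in the RefSeq table. A promoter was listed for 30 of the 37 names. Of the 10 tested class I heavy chains with a promoter, 7 held the interferon element, 4 the kappa B site, 4 the Y box and 6 the CRE core. Counted back from the start, the kappa B site began at -125 in H2-K1 and -171 in H2-D1, and the interferon element followed at -104 and -150. For H2-K1 and H2-DMa 2 starts were listed and the last was used. The positions in H2-K1 and its lack of a Y box match therefore hold for that start only. None of the 5 tested class II genes with a promoter held the interferon element or the kappa B site, whereas H2-Aa and H2-Eb1 held the Y box, at -51 and -62. H2-Q2 held none of the 4 motifs in this window. These matches describe the letters only and no binding was measured here.

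Enough counts for a test were found for 27 of the 38 genes. In Trf2-/- testis 14 of these were higher and 1, H2-Q2, was lower at an adjusted p under 0.05, and 12 did not pass the test. Of all tested genes, 11.2% were higher and 20.2% lower at that threshold. The median log2 fold change of the 27 was 0.87. At a change of at least 2-fold, 8 were higher and 1 lower, where 0.609% of all tested genes were higher and 4.3% lower. The 3 Trf2-/- mice all lay above the 3 WT mice in 13 of the 27 genes (22.3% of all tested genes) and all below in 1 (26.8% of all tested genes). Leaving out WT mouse 1 or WT mouse 3 lowered the number of genes called higher from 14 to 6 or 7, and the number at 2-fold went from 8 to 2 without Trf2-/- mouse 1, to 3 or 4 without WT mouse 1 or 3, and to 13 without Trf2-/- mouse 3. The calls of H2-Q4, H2-Ab1, Psmb8, Tap1 and Tap2 as higher were kept under every alternative run, and that of H2-Q2 as lower under each in which it was tested.

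**Figure D1:**
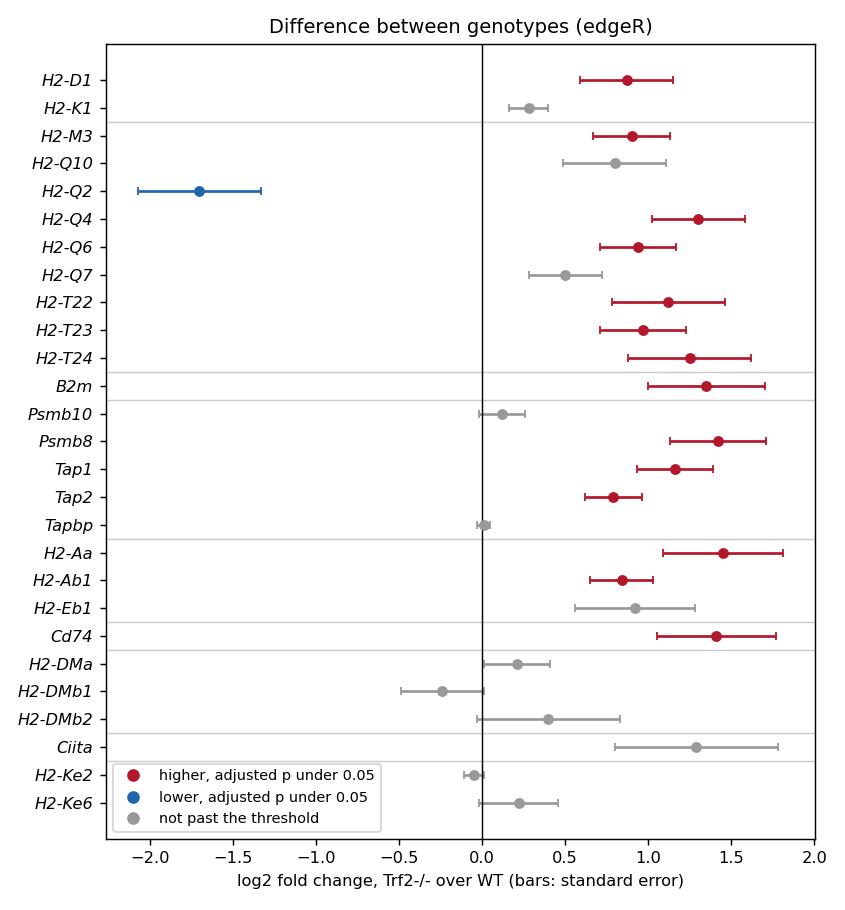
Log2 fold change of the 27 tested genes, Trf2-/- over WT, from the edgeR fit, with bars for the standard error and lines between the roles. Among the genes that encode MHC chains or their helpers, H2-Q2 at -1.70 is the sole gene called lower, and Tapbp lies at 0.01.

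The light chain B2m showed 26.1, 30.5 and 29.9 CPM in WT mice 1 to 3, and 125, 52.6 and 40.9 CPM in Trf2-/- mice 1 to 3. All Trf2-/- mice were above all WT mice, and Trf2-/- mouse 1 stood well above the other two. The mean level was 28.8 ± 2.4 CPM (SD, n = 3) in WT and 72.8 ± 45.5 (SD, n = 3) in Trf2-/- testis, a log2 fold change of 1.35 (SE 0.35, adjusted p 0.0195). Without Trf2-/- mouse 1 the log2 fold change was 0.69 (adjusted p 0.00817), and the call was lost without WT mouse 1 (adjusted p 0.0774), WT mouse 2 (0.0601) or WT mouse 3 (0.0579).

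The classical heavy chains H2-K1 and H2-D1, which present peptides to CD8 T cells, are described side by side. H2-K1 was the most abundant class I chain per length, with a mean of 66.9 CPM per kb in WT and 81.3 in Trf2-/- testis. Its values were 121, 136 and 129 CPM in WT and 193, 139 and 137 CPM in Trf2-/- mice 1 to 3, with mice 2 and 3 only just above the highest WT mouse. The log2 fold change of 0.28 (SE 0.12) did not pass the test (adjusted p 0.103), although it did without Trf2-/- mouse 3 (0.37, adjusted p 0.0305). Without Trf2-/- mouse 1 the value was 0.09 (adjusted p 0.354). H2-D1 gave 28.9 CPM in each WT mouse and 83.4, 37.4 and 36.1 CPM in the Trf2-/- mice, again with mouse 1 far above the others. Its log2 fold change was 0.87 (SE 0.28, adjusted p 0.046). That call stood close to the threshold, with an adjusted p of 0.103 in DESeq2, of 0.123, 0.119 and 0.11 without WT mouse 1, 2 or 3, and a log2 fold change of 0.33 without Trf2-/- mouse 1 (adjusted p 0.0109).

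The shares of these chains in the class I message were also compared. H2-K1 made up 74.3%, 74.7% and 73.5% of the summed class I level per length in WT mice 1 to 3, and 63.6%, 67.5% and 67.6% in Trf2-/- mice 1 to 3. H2-D1 made up 15.0%, 13.5% and 14.0% in WT and 23.4%, 15.4% and 15.1% in Trf2-/- mice. The groups did not overlap for either share. B2m per length amounted to 0.48, 0.503 and 0.518 of H2-K1 in WT mice and to 1.45, 0.844 and 0.667 in Trf2-/- mice 1 to 3. The share of 50-base words that the transcripts have in common with other genes was 7.29% for H2-K1, 12.8% for H2-D1 and 0% for B2m. Most 50-base stretches of these transcripts were thus found in no other gene among the protein-coding transcripts searched.

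Of the 16 non-classical (class Ib) heavy chains, 9 were tested, of which 6 rose and 1 fell (all tested genes: 11.2% higher, 20.2% lower). H2-M3, which presents formylated peptides of bacteria and mitochondria, measured 1.01, 1.15 and 0.864 CPM in WT and 2.30, 1.67 and 1.64 CPM in Trf2-/- mice (log2 fold change 0.90, SE 0.23, adjusted p 0.0179). H2-T23, which encodes the Qa-1 molecule read by inhibitory receptors of natural killer cells, measured 1.99, 1.61 and 1.82 CPM in WT and 4.88, 3.17 and 2.40 CPM in Trf2-/- mice (log2 fold change 0.97, SE 0.26, adjusted p 0.0218). H2-Q4 rose from 1.95, 1.76 and 1.87 CPM to 6.15, 4.80 and 2.59 CPM, the largest change among the class I chains that rose (log2 fold change 1.30, SE 0.28, adjusted p 0.00846). In each of these genes the groups were separate.

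H2-Q6, a Qa-2 gene, rose with separate groups from 1.85, 1.65 and 1.68 CPM in WT to 4.29, 3.17 and 2.34 CPM in Trf2-/- mice (log2 fold change 0.94, SE 0.23, adjusted p 0.0151). H2-T22, a ligand of some gamma delta T cell receptors, rose with groups that overlapped, from 1.25, 1.19 and 2.25 CPM to 4.52, 3.39 and 1.90 CPM (log2 fold change 1.12, SE 0.34, adjusted p 0.0362). H2-T24 also rose with groups that overlapped, from 1.32, 1.69 and 0.768 CPM to 3.02, 4.33 and 1.58 CPM (log2 fold change 1.25, SE 0.37, adjusted p 0.0329), and was the sole class I gene called higher in which Trf2-/- mouse 2 exceeded mouse 1. Of the 50-base words of H2-T22, 40.6% recurred in another gene and 34.9% in H2-T10, so that its value is uncertain where reads were split between these copies.

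Leaving out single mice ended several of these calls. H2-M3 lost its call without WT mouse 1, WT mouse 3 or Trf2-/- mouse 1 (adjusted p 0.061, 0.0599 and 0.0701), and H2-Q6 without WT mouse 2 or Trf2-/- mouse 1 (0.0593 and 0.0554). H2-T23 lost it without WT mouse 1, 2 or 3 or Trf2-/- mouse 1 (0.0559, 0.0834, 0.0607 and 0.0708). For H2-T22 the call ended without WT mouse 1 or 2 or Trf2-/- mouse 1 or 2 (0.13, 0.129, 0.136 and 0.084), and for H2-T24 without WT mouse 1 or 3 or Trf2-/- mouse 1 or 2 (0.0943, 0.099, 0.077 and 0.122). H2-Q4 remained past the threshold without any of the 6 mice, its highest adjusted p being 0.0391.

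H2-Q2 was the class I gene that fell. Its level was 0.662, 1.07 and 1.06 CPM in WT and 0.198, 0.386 and 0.253 CPM in Trf2-/- mice 1 to 3, with every Trf2-/- mouse below every WT mouse. The log2 fold change was -1.70 (SE 0.37, adjusted p 0.00831), and between -1.47 and -2.05 when single mice were left out. The Trf2-/- values stand on few reads, and with a minimum of 10 counts in every mouse the gene was not tested. Some 14.6% of its 50-base words recurred in other genes, 12.9% in its neighbour H2-Q1, which had at most 2 counts in any mouse. Of the mutant mice, mouse 1 was the lowest for H2-Q2.

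The 2 remaining class Ib genes did not pass the test. H2-Q10, a secreted class I protein known from the liver, measured 4.32, 8.58 and 8.30 CPM in WT and 8.49, 10.8 and 18 CPM in Trf2-/- mice, with an order of the mutant mice opposite to that of B2m (log2 fold change 0.80, SE 0.31, adjusted p 0.0832). It passed in DESeq2 (adjusted p 0.022) and without Trf2-/- mouse 1 (0.0491). H2-Q7, the other Qa-2 gene, measured 1.71, 1.34 and 1.87 CPM in WT and 2.70, 1.84 and 2.40 CPM in Trf2-/- mice (log2 fold change 0.50, SE 0.22, adjusted p 0.111). Of its 50-base words 49.3% recurred in another gene or elsewhere on chromosome 17.

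**Figure D2:**
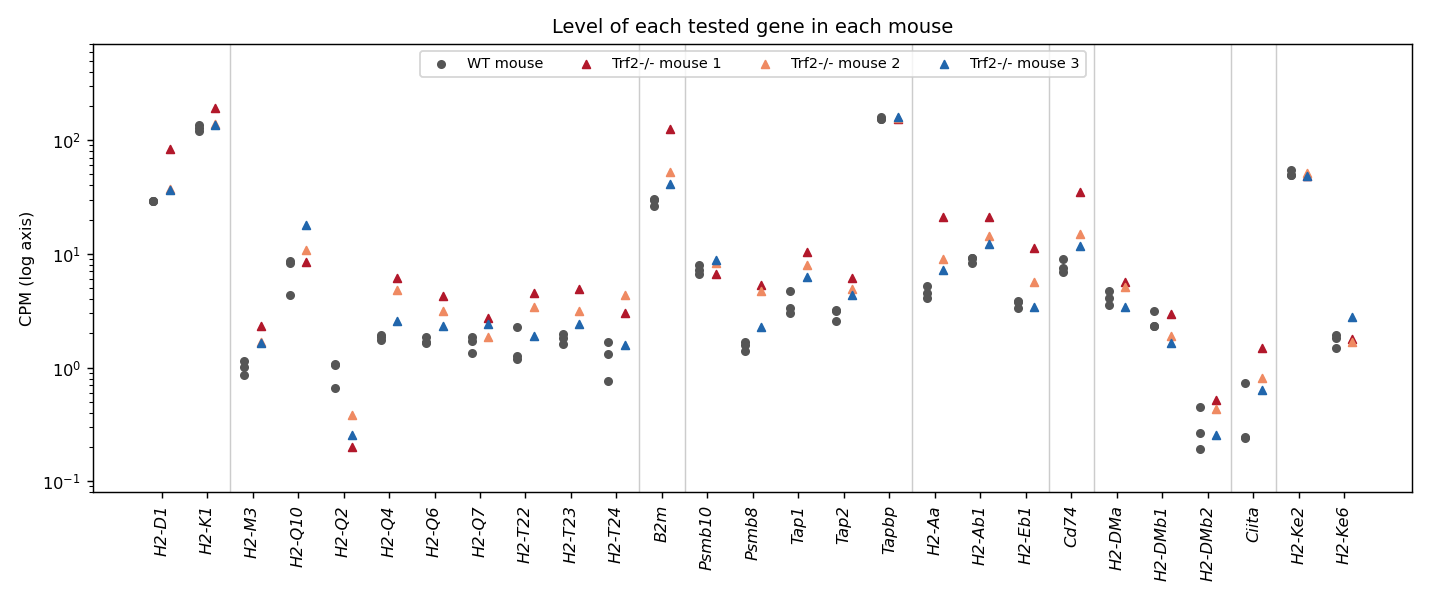
Level of each of the 27 tested genes in each mouse, as CPM on a log axis, with circles for WT mice and triangles for Trf2-/- mice. Trf2-/- mouse 1 is the highest mutant mouse in 20 of the 27 genes, H2-Q2 is the gene in which all triangles lie below the circles, and the points of Tapbp fall on each other near 155 CPM.

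Among the genes that supply class I with peptide, 3 of 5 rose and none fell (all tested genes: 11.2% higher, 20.2% lower). Psmb8 encodes the catalytic subunit that takes the place of Psmb5 in the immunoproteasome. It measured 1.39, 1.69 and 1.58 CPM in WT and 5.28, 4.67 and 2.28 CPM in Trf2-/- mice, all above WT, with a log2 fold change of 1.42 (SE 0.29, adjusted p 0.00658). Psmb5 itself was lower in Trf2-/- testis (log2 fold change -0.35, adjusted p 0.0126), and Psmb8 per length amounted to 0.0376, 0.0424 and 0.0409 of Psmb5 in WT and to 0.18, 0.142 and 0.08 in Trf2-/- mice. Of the 3 constitutive subunits Psmb5, Psmb6 and Psmb7, 2 were called lower, but 0 without WT mouse 2 and 1 without WT mouse 1, WT mouse 3 or Trf2-/- mouse 1. Psmb10, which takes the place of Psmb7, gave 6.66, 8.01 and 7.15 CPM in WT and 6.71, 8.28 and 8.79 CPM in Trf2-/- mice with groups that overlapped (log2 fold change 0.12, SE 0.14, adjusted p 0.542). Psmb9, a further subunit of the immunoproteasome, was not analysed here.

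The transporter subunits both rose. Tap1 measured 3.03, 4.75 and 3.31 CPM in WT and 10.4, 8.02 and 6.26 CPM in Trf2-/- mice (log2 fold change 1.16, SE 0.23, adjusted p 0.00501). Tap2 measured 3.14, 3.18 and 2.59 CPM in WT and 6.11, 4.93 and 4.30 CPM in Trf2-/- mice (log2 fold change 0.79, SE 0.17, adjusted p 0.009). All Trf2-/- mice were above all WT mice in both genes, and the calls held without any single mouse, with adjusted p up to 0.0272 and 0.0365.

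Tapbp, the tapasin that holds empty class I molecules to the transporter, stood at 159, 154 and 153 CPM in WT and 154, 156 and 158 CPM in Trf2-/- mice. The log2 fold change was 0.01 with an SE of 0.04 (adjusted p 0.928). Tapbp overlaps Zbtb22 on the same strand over 3421 bases, and how reads in that stretch were assigned is not given in the sources used here. The further loading genes on the list, Calr, Canx, Pdia3, Tapbpl, Erap1, Psme1 and Psme2, gave 0 calls of 7 in edgeR and 2 at an unadjusted p under 0.05, with log2 fold changes from -0.03 to 0.34. With library size in place of TMM, which moved the median of all genes to 0.13, 4 of the 7 were called higher.

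Of the class II chains, H2-Aa and H2-Ab1, the alpha and beta chain of the I-A molecule, rose and H2-Eb1, the beta chain of I-E, did not pass the test. H2-Aa measured 4.53, 5.17 and 4.08 CPM in WT and 20.9, 9.05 and 7.27 CPM in Trf2-/- mice (log2 fold change 1.45, SE 0.36, adjusted p 0.015). H2-Ab1 measured 9.23, 9.27 and 8.25 CPM in WT and 21.2, 14.3 and 12.1 CPM in Trf2-/- mice (log2 fold change 0.84, SE 0.19, adjusted p 0.00989). The groups were separate in both. H2-Eb1 measured 3.83, 3.79 and 3.31 CPM in WT and 11.2, 5.66 and 3.41 CPM in Trf2-/- mice, of which mouse 3 lay within the WT range (log2 fold change 0.92, SE 0.36, adjusted p 0.0809). It was called higher by DESeq2 (adjusted p 0.0347) and without Trf2-/- mouse 3 (0.00599), and its log2 fold change was 0.33 without Trf2-/- mouse 1 (adjusted p 0.331). H2-Eb2, a further beta chain, had 0 counts in the WT mice and at most 5 in a Trf2-/- mouse, and was not tested.

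Cd74, the invariant chain, lies on chromosome 18 and not in the H2 complex. It measured 6.93, 8.92 and 7.44 CPM in WT and 34.8, 14.9 and 11.7 CPM in Trf2-/- mice, again with separate groups and mouse 1 the highest (log2 fold change 1.41, SE 0.36, adjusted p 0.0172). Its ratio to H2-Aa per length was 1.90, 2.15 and 2.27 in WT and 2.07, 2.04 and 2 in Trf2-/- mice, values that overlapped. The leukocyte and macrophage marker sums had the same order of mutant mice as H2-Aa and Cd74, and their part in these levels was not tested. Without Trf2-/- mouse 1 the log2 fold changes of H2-Aa and Cd74 were 0.82 and 0.77 (adjusted p 0.012 and 0.0133). The H2-Aa call was lost without WT mouse 1 or 3 (adjusted p 0.0589 and 0.0554) and the Cd74 call without the same mice (0.0719 and 0.0583). The promoters printed above show no match to GAANNGAAA for H2-Aa or H2-Eb1. None of the transcripts of H2-Aa, H2-Ab1, H2-Eb1 and Cd74 shared a 50-base word with another gene among the protein-coding transcripts searched.

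The peptide exchange genes, which work on the same class II molecules, gave no call. H2-DMa measured 4.08, 4.75 and 3.55 CPM in WT and 5.63, 5.15 and 3.41 CPM in Trf2-/- mice (log2 fold change 0.21, SE 0.20, adjusted p 0.445). H2-DMb1 measured 3.14, 2.34 and 2.30 CPM in WT and 2.98, 1.89 and 1.64 CPM in Trf2-/- mice (log2 fold change -0.24, SE 0.25, adjusted p 0.494), and H2-DMb2 lay between 0.192 and 0.516 CPM in the 6 mice (log2 fold change 0.40, SE 0.43, adjusted p 0.504). The groups overlapped in all of them. Of these 3 genes 0 were called by edgeR or by DESeq2, and 0 had an unadjusted p under 0.05 in edgeR. The level of H2-DMa per length amounted to 1.01, 1.04 and 0.981 of that of H2-Aa in WT and to 0.304, 0.641 and 0.529 in Trf2-/- mice. H2-DMb1 and H2-DMb2 share 27.1% and 24.6% of their 50-base words with each other. H2-Oa and H2-Ob, which inhibit the exchange, had at most 4 counts in any mouse and were not tested.

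Further genes of the class II route were examined as a list chosen for function. Of 6 proteases and other processing genes, 5 rose and none fell (all tested genes: 11.2% higher, 20.2% lower). Their median log2 fold change was 0.56. Ctss, the cathepsin that trims the invariant chain in antigen-presenting cells, showed the largest change (log2 fold change 1.07, adjusted p 0.0364). Among the genes called it was followed by the thiol reductase Ifi30 (0.66, adjusted p 0.00396) and Ctsb (0.46, adjusted p 0.0399). March1 stood at 0.73 but did not pass the test (adjusted p 0.149). The number of calls fell to 3 without WT mouse 1 or 3, and to 2 without WT mouse 2 or Trf2-/- mouse 1.

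Ciita, the co-activator that class II genes require, was low in every mouse. Its level was 0.244, 0.728 and 0.240 CPM in WT and 1.47, 0.815 and 0.632 CPM in Trf2-/- mice, with groups that overlapped through WT mouse 2. The log2 fold change of 1.29 (SE 0.49) did not pass the test (adjusted p 0.0736), but did without WT mouse 2 (2.02, adjusted p 0.0253) or Trf2-/- mouse 3 (1.48, adjusted p 0.0439). Without Trf2-/- mouse 1 it was 0.83 (adjusted p 0.282), and without WT mouse 1 or 3 it was 0.99 or 1.06 (adjusted p 0.223 and 0.185). Nlrc5, the corresponding co-activator of class I, was outside the chosen genes because the table gives it the biotype lincRNA. It measured 1.05, 1.53 and 1.30 CPM in WT and 2.70, 3.22 and 2.28 CPM in Trf2-/- mice, all above WT (log2 fold change 1.09, SE 0.22, adjusted p 0.00576).

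Of 13 further factors of MHC promoters and of interferon signalling, 2 rose and 1 fell (all tested genes: 11.2% higher, 20.2% lower). The number called higher was 6 with library size in place of TMM, 4 in DESeq2 and 1 without WT mouse 1. Irf1, which binds interferon response elements, rose by 0.53 on the log2 scale (adjusted p 0.0164) and Rfx5, a subunit of the X box complex, by 0.28 (adjusted p 0.00508). Rfxank, another subunit of that complex, fell by 0.33 (adjusted p 0.0406), a call lost with library size in place of TMM and without any single mouse other than Trf2-/- mouse 2. Of 11 tested interferon response genes 3 rose, which were the GTPases Iigp1 (log2 fold change 1.73, adjusted p 0.00322), Igtp (1.14, adjusted p 0.00991) and Irgm1 (1.05, adjusted p 0.00202). The number was 7 without Trf2-/- mouse 3 and 5 with library size in place of TMM. The interferon response list summed to 19.6, 24.1 and 22.9 CPM per kb in WT and to 28.6, 36.9 and 27.3 in Trf2-/- mice. There mouse 2, and not mouse 1, was the highest mutant mouse.

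H2-Ke2 and H2-Ke6 match the chosen name but encode no MHC molecule, being a prefoldin subunit and a steroid dehydrogenase that lie in the complex. H2-Ke2 lay between 48.0 and 54.3 CPM in the 6 mice (log2 fold change -0.05, SE 0.06, adjusted p 0.521), and H2-Ke6 between 1.49 and 2.78 CPM (log2 fold change 0.22, SE 0.24, adjusted p 0.508). The 11 genes that were not tested had 0 to 9 counts per mouse and at most 3 in every mouse for 7 of them. They comprise 7 class I genes (H2-M2, H2-M5, H2-M10.3, H2-M10.5, H2-M10.6, H2-Q1 and H2-T3), the class II genes H2-Eb2, H2-Oa and H2-Ob, and the second Ciita identifier. Their expression was not detectable or could not be compared at this depth.

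Class I and class II were then compared, beside 11.2% of all tested genes called higher and 20.2% called lower. Of 11 tested class I genes 7 rose and 1 fell (median log2 fold change 0.90), and of 6 tested class II genes 2 rose and none fell (median log2 fold change 0.62). Summed per length over all 18 class I genes, the level was 84.9, 94.3 and 91.3 CPM per kb in WT and 157, 107 and 105 in Trf2-/- mice 1 to 3. The class II sum over 9 genes was 18.5, 18.7 and 15.9 CPM per kb in WT and 44.8, 26.6 and 20.6 in Trf2-/- mice. Every Trf2-/- mouse was above every WT mouse in both sums. The mean of the mutant mice was 1.37 times the WT mean for class I and 1.73 times for class II, and 1.18 and 1.33 times without Trf2-/- mouse 1. The ratio of the class II to the class I sum was 0.218, 0.199 and 0.175 in WT and 0.285, 0.248 and 0.196 in Trf2-/- mice, so that the genotypes overlapped through Trf2-/- mouse 3, and a higher rise of class II than of class I was not shown. The class I sum is set largely by H2-K1, and no test was made on sums over chosen genes.

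Without Trf2-/- mouse 1 the number of class I genes called higher was 3, and it was 2, 3 and 3 without WT mouse 1, 2 or 3. For class II, 1 gene was called higher without WT mouse 1 or 3, and the median log2 fold change was 0.24 without Trf2-/- mouse 1.

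**Figure D3:**
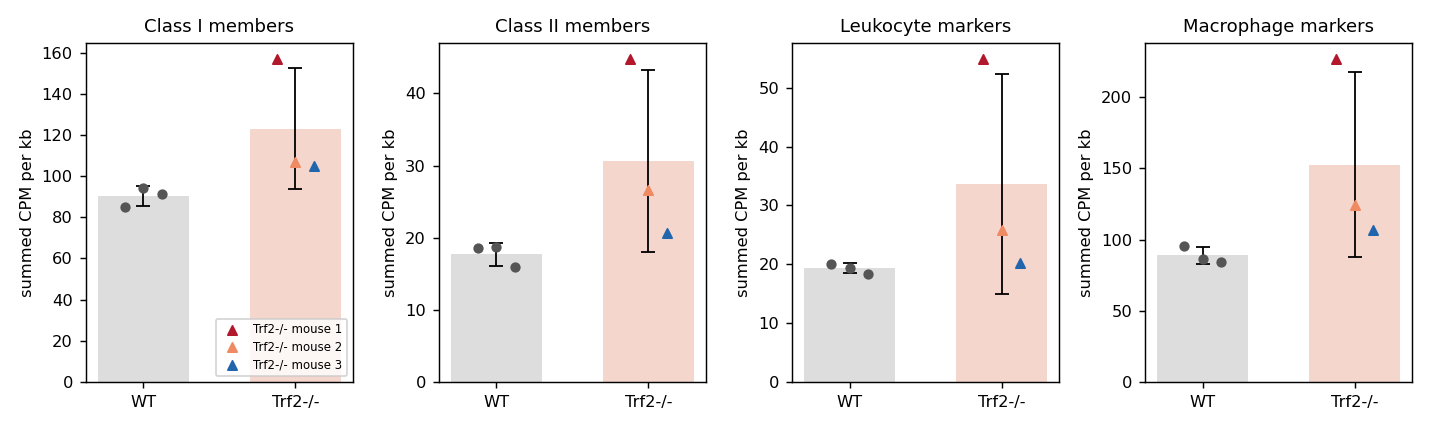
Summed level per length (CPM per kb) of the 18 class I genes, the 9 class II genes, 7 leukocyte markers and 11 macrophage markers in each mouse, with bars for the group mean and whiskers for the SD (n = 3 mice). In all panels Trf2-/- mouse 1 is the highest mouse, and in the leukocyte panel Trf2-/- mouse 3 at 20.2 stands beside the highest WT mouse at 20.1.

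The mutant mice kept a common order over most of the genes. Trf2-/- mouse 1 was the highest mutant mouse in 20 of the 27 tested genes (74.1%, against 30.4% of all tested genes), and mouse 3 was the lowest in 20 (74.1%, against 37.5%). Relative to the WT mean, mouse 1 stood at 4.54-fold for H2-Aa, 4.48-fold for Cd74 and 4.34-fold for B2m, where mouse 3 stood at 1.58-fold, 1.51-fold and 1.42-fold. Mice 1 and 2 were closer together for Psmb8 (3.40-fold and 3.01-fold) and for H2-Q4 (3.3-fold and 2.58-fold).

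**Figure D4:**
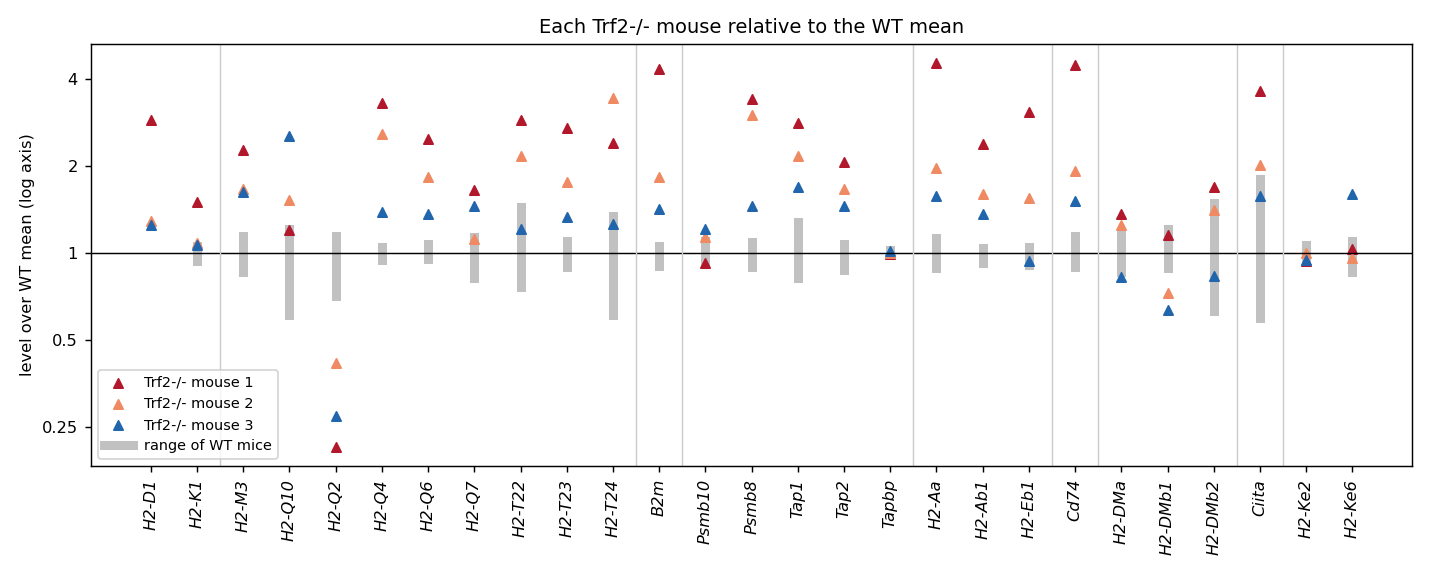
Level of each tested gene in each Trf2-/- mouse divided by the WT mean, on a log axis, with grey bars for the range of the 3 WT mice. Mouse 1 stands above 4-fold for B2m, H2-Aa and Cd74, while mouse 3 stands between 1.42-fold and 1.58-fold for these genes.

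Markers of leukocytes moved with this order, and the calls below stand beside 11.2% of all tested genes called higher. The summed level of 7 general leukocyte markers was 20.1, 19.4 and 18.4 CPM per kb in WT and 54.9, 25.8 and 20.2 in Trf2-/- mice 1 to 3. All 7 had a log2 fold change above 0, but only Tyrobp, an adaptor of myeloid receptors, passed the test (0.97, adjusted p 0.0376), and no marker did without Trf2-/- mouse 1 or 2 or any single WT mouse, whereas 5 did without Trf2-/- mouse 3. The pan-leukocyte marker Ptprc measured 3.55, 4.10 and 3.55 CPM in WT and 11.3, 5.23 and 4.11 CPM in Trf2-/- mice (log2 fold change 0.91, adjusted p 0.0682). The 11 macrophage markers summed to 95.4, 86.5 and 84.6 CPM per kb in WT and to 227, 124 and 107 in Trf2-/- mice, and 5 of them rose, among them Lyz2 (log2 fold change 1.36, adjusted p 0.0203), Emr1 (0.99, adjusted p 0.0329) and C1qa (0.79, adjusted p 0.0158). The other 6 did not pass the test. Among them were Mrc1 (log2 fold change 0.16, adjusted p 0.466), the marker with the most CPM, and Cx3cr1 (0.13, adjusted p 0.669). In both, Trf2-/- mouse 3 stood below the WT mean (0.84-fold and 0.849-fold). Lyz2 weighed much in the sum, with means of 17.8 CPM per kb in WT and 45.4 in Trf2-/- testis. The number of macrophage markers called higher was 3 without Trf2-/- mouse 1, 2 without WT mouse 1, 0 without WT mouse 2 or 3 and 10 without Trf2-/- mouse 3. Whether a higher share of macrophages accounts for the levels of the MHC genes was not tested.

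Markers of dendritic cells and of T cells were at low levels or gave no call. The dendritic cell list summed to between 4.44 and 5.03 CPM per kb in WT and between 4.55 and 5.49 in Trf2-/- mice. Most of that sum was Zbtb46 (mean 3.38 CPM per kb in WT and 3.48 in Trf2-/- testis). Of 4 tested genes 0 were called by edgeR and 1 had an unadjusted p under 0.05. Their log2 fold changes ran from -0.31 (Flt3) to 0.83 (Batf3, adjusted p 0.216). Of the untested genes, Clec9a and Ccr7 had 0 to 2 counts in every mouse and Itgax had 3 to 14. Cd4, which macrophages can also carry, was the sole tested gene of 6 T cell markers (log2 fold change 0.24, adjusted p 0.622), and Cd3e, Cd3d, Cd3g and Cd8a had few or no counts. The T cell list as a whole ran from 0.484 to 0.915 CPM per kb in WT and from 0.521 to 1.02 in Trf2-/- mice.

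The remaining cells of the testis were described in the same way. Over all tested genes 11.2% were higher and 20.2% lower, and no list was tested against these shares. Of the markers of somatic cells, 2 of 4 Sertoli, 1 of 6 Leydig, 1 of 5 peritubular and 1 of 5 endothelial genes rose, and 1 of 4 spermatogonial genes, all with list medians between 0.15 and 0.31 on the log2 scale. The Sertoli calls were lost without WT mouse 1, the Leydig call without WT mouse 1 or 3 or Trf2-/- mouse 1, the peritubular call without WT mouse 1 or 2 or Trf2-/- mouse 1, and the spermatogonial call without any WT mouse. All 5 pachytene spermatocyte markers and 2 of 4 round spermatid markers fell. Class I-like genes outside the H2 complex gave 2 calls of 4 tested, Fcgrt (log2 fold change 0.51, adjusted p 0.0287), the receptor that recycles IgG, and the iron regulator Hfe (0.36, adjusted p 0.0469), and the list gave 0 calls without WT mouse 2 or 3 or Trf2-/- mouse 1. Of 3 tested co-stimulatory ligands, Icosl rose (log2 fold change 0.65, adjusted p 0.01).

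The position of the genes was examined last. In the mm9 build 33 of the 38 lie on chromosome 17 between 34052844 and 37620497, and 12 of the 23 tested there were higher (52.2%). Of 100 other tested genes in the same stretch, 9 were higher (9.0%) and 22 lower (22%), with a median log2 fold change of -0.0. Psmb8, Tap1 and Tap2 lie side by side between 34324498 and 34353266, and all of these rose. Of the tested genes outside the complex, B2m on chromosome 2 and Cd74 on chromosome 18 rose. Psmb10 on chromosome 8 and Ciita on chromosome 16 did not pass the test (edgeR adjusted p 0.542 and 0.0736).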

How the data were processed

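RNA-seq of whole testis from 3 WT and 3 Trf2-/- mice was analysed, with groups taken from the labels. Libraries were made with a stranded total RNA kit after depletion of ribosomal RNA and read as single-end 50 base reads. The authors deposited raw counts per gene for each mouse. Per the labels, the submitters' processing notes name CASAVA 1.8.2, TopHat2 2.0.10, Bowtie2 2.1.0, HTSeq 0.5.4p3, DESeq2 1.0.19 and the build mm9. The strand setting, the treatment of reads that fit several genes and the annotation release are not given in the sources used here. The mm9 sequence holds 1 haplotype of the H2 genes, and the labels give no strain for these mice, while the study's methods name 129/SvPas for its mice with tagged Trf2. The 12 normalized value columns of the table were not used.

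Counts were tested with edgeR 4.0.16 (R 4.3.3; TMM, filterByExpr, glmQLFit and glmQLFTest) over 16924 of 26743 genes with Benjamini-Hochberg adjustment. The standard error was derived from the log2 fold change and the F statistic. CPM used TMM-scaled library sizes, and CPM per kb the gene length in the deposited table. Permuting 3 against 3 mice exactly allows no p below 0.1. The members and lists were chosen with earlier results of these data known, so no test was made over a list. The B cell marker list is not reported here. All chosen genes are accounted for, and of each further list at most 3 genes past an adjusted p of 0.05 with the largest change are named, with other markers, the low T cell and dendritic cell markers among them, named after their values were seen. Transcripts were cut into 50-base words with the protein-coding transcripts of GENCODE vM1 on the same build, and other transcripts were not searched. In that release all 38 genes have the same coordinates as in the table. Promoters came from RefSeq (GRCm38.p6).

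The alternatives were scaling by DESeq2 size factors or by library size alone, DESeq2 1.42.0 with its Wald test, a minimum of 1 count in all or of 10 counts in each mouse, a block for the replicate number, fits without each mouse, an adjusted p of 0.01 and a class I sum without H2-Q, H2-T and H2-D names. The fits were tested on simulated data. Pairs of mice of 1 genotype differed by more than sampling noise. The chi-square over genes was 3.32 to 5.57 times its degrees of freedom between WT mice and 6.25 times between Trf2-/- mice 1 and 2. It was largest for the pairs with Trf2-/- mouse 3, at 10.3 times with mouse 1 and 9.98 times with mouse 2.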

Additional observations from a re-analysis of the deposited data

How the results depend on the processing

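The number of genes called higher, 14, was 5 at an adjusted p under 0.01 and ranged from 6 to 17 when single mice were left out. At a change of at least 2-fold, 8 genes were higher, with a range of 2 to 13. The 7 class I genes called higher ranged from 2 to 8 and the 2 class II genes from 1 to 3 in the same way. With at least 10 counts in every mouse, H2-Q2 was not tested, so 0 genes were called lower, 0 at 2-fold and 0 in class I. Of the recomputed counts, medians and sums, 144 stayed within a set margin of the main value (for Tbpl1, kept the call). A further 15 were weaker and 1 was stronger. The margin was wide, as it held a fall from 14 to 10 genes called higher without WT mouse 2 or Trf2-/- mouse 1. It also held a class II median log2 fold change of 0.24 without Trf2-/- mouse 1, against 0.62 with all mice. With library size in place of TMM the log2 fold change of H2-Ke2 became 0.04, and that of H2-Ke6 ranged from -0.01 (without Trf2-/- mouse 3) to 0.33 without single mice. The log2 fold change of Tapbp, 0.01, was -0.01 with at least 10 counts in every mouse and between -0.01 and 0.03 without single mice. The class I sum without H2-Q, H2-T and H2-D names was 1.22 times the WT mean in Trf2-/- testis, and the ratio of the sums then 1.38 times.

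The labels number the mice 1 to 3 in each genotype. Deviations from the group means correlated at -0.0973, -0.0313 and -0.102 between mice of the same number, so the number did not pair them. With the replicate block 13 genes were called higher, 7 at 2-fold, 6 in class I and 2 in class II, and 1 was called lower, the differences being H2-D1 and H2-T22, which were not called (adjusted p 0.0523 and 0.083), and H2-Q10, which was (0.0175).

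Genes under about 1 CPM, Ciita and H2-DMb2 among them, rest on few reads, and 11 of the 38 genes were not tested at this depth. The H2-Q and H2-T genes share sequence, and how their shared reads were counted is not given in the sources used here. Whole testis gives no level per cell.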
